A study of Homo sapiens with 12 samples.

Results

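The genes described here are 10 members of the basic helix-loop-helix (bHLH) family that direct cells to a neuronal or an oligodendrocyte fate: NEUROG1, NEUROG2, NEUROG3, NEUROD1, NEUROD2, NEUROD4, NEUROD6, ATOH1, OLIG1 and OLIG2. They were taken by name from the 20033 protein-coding genes of the annotation, and all 10 were found. In every sample, the trimethylation of lysine 27 of histone 3 (H3K27me3) was read from the peaks that overlapped the gene with 5 kb on each side, by their number, width, fold enrichment over the local background, and q-value.

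The samples were chromatin immunoprecipitations (ChIP) from untreated SH-SY5Y cells, which were established from a human neuroblastoma. There were 3 genotypes with 2 replicates each, namely cells that express Tau (WT) and the knock-out (Tau-KO) lines 231K and 232P, in which Tau was removed. Each knock-out is represented by 1 line, so what the line itself contributes and what the loss of Tau contributes cannot be told apart. MAPT, the gene that encodes Tau, had no peak in any of the 6 lists, and the lists cannot therefore check the knock-out. The titles of the 231K samples write the mark as H3K27me, but the antibody was the same in all 6 samples. Peaks of the 232P lists carry identifiers that start with 231P, and the study also has a Tau-KO line called 231P. The sample labels were followed, and whether these lists are from 232P or 231P cells could not be checked, which bears on every value given for 232P.

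The lists differed in number and extent of peaks before any gene was considered. WT replicates 1 and 2 held 285826 and 222191 peaks that covered 213.6 and 282.6 Mb. The 231K replicates held 271413 and 212347 peaks over 196.6 and 290.2 Mb. The 232P replicates held 147118 and 199677 peaks over 70.3 and 211.7 Mb, so that replicate 1 of 232P covered the least of the genome. The genome-wide background that MACS used as its floor, which scales with both the reads of a library and the length of its fragments, was 1.01 reads per position in that list and between 1.27 and 1.52 in the other 5. The narrowest peak was 175 to 179 bp wide in the replicate 1 lists and 240 to 262 bp in the replicate 2 lists. Read totals are not in the lists, and sequencing depth, fragment length and enrichment of the libraries cannot be told apart from them. Values are therefore also given within a replicate number.

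H3K27me3 is deposited by the polycomb repressive complex 2 (PRC2), whose catalytic subunit is EZH2, and marks genes that are kept silent in a given cell type. Genes of developmental regulators are classical PRC2 targets, and the mark often spreads over many kilobases around them. Proneural factors such as the neurogenins and ATOH1 commit progenitors to the neuronal lineage, the NEUROD factors act later in differentiation, and OLIG1 and OLIG2 serve the oligodendrocyte and motor neuron lineages. SH-SY5Y cells derive from the sympathoadrenal lineage, which relies on other bHLH factors such as HAND2.

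Of the 10 genes, 8 had a peak in all 6 lists, and the remaining NEUROG2 and NEUROD1 had none in any list. Among all protein-coding genes, 19.7% had a peak in the window in all 6 lists and 68.3% had none in any list. Over the 6 lists, the 8 genes held 233 peaks with a median width of 842 bp, and the peak of the best q-value of each gene in each list rested on 8 to 27 reads at its summit. A stricter demand, that at least 10% of the window be covered in every list, was met by 6 of the 10 genes and by 8.5% of all genes, since ATOH1 and NEUROD4 then dropped out.

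**Figure D1:**
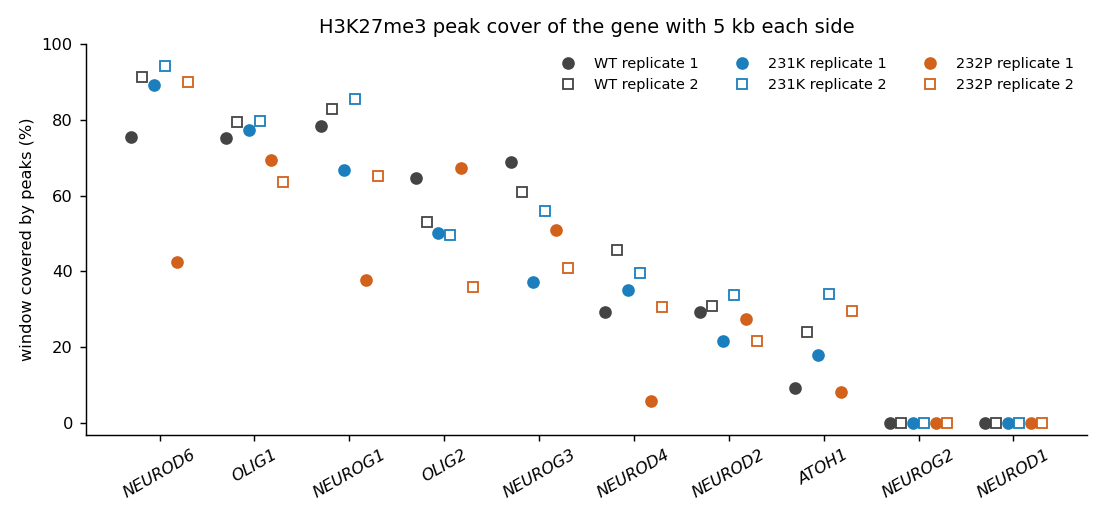
Share of each gene window (the gene with 5 kb on each side) that lay under H3K27me3 peaks, in percent, for the 10 genes ordered by their mean. Each point is 1 sample, filled circles are replicate 1 and open squares replicate 2. NEUROD6 reached 94.3% in 231K replicate 2, while NEUROG2 and NEUROD1 were at 0 in all 6 samples.

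NEUROG1, a neurogenin that specifies sensory neurons, lies on the minus strand of chromosome 5 (hg38, 135534282 to 135535964) in a single exon. Peaks covered 78.5% (replicate 1) and 82.9% (replicate 2) of its window in WT. The shares were 66.7% and 85.4% in 231K, and 37.8% and 65.3% in 232P. Both 232P values were below both WT values, as in 53.9% of the 4630 genes compared below. The 231K values lay on either side of the WT values. Its highest fold enrichment was between 5.47 in 232P replicate 1 and 7.94 in 232P replicate 2, and the 4 values of WT and 231K, from 5.96 to 6.97, lay inside this span.

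NEUROG3, the neurogenin known as the determinant of endocrine cells in the pancreas, is encoded on the minus strand of chromosome 10 (69571698 to 69573422) in 2 exons. Its covered share was 68.9% and 61.0% in WT, 37.2% and 56.1% in 231K, and 51.0% and 40.9% in 232P. All 4 Tau-KO values were lower than the 2 WT values, while those of the Tau-KO lines overlapped each other. Of the 4630 genes compared below, 12.7% were lower than WT in both 231K samples and 53.9% in both 232P samples. The share lower in all 4 was not counted. The highest fold enrichment was 7.54 and 7.99 in WT, 7.79 and 9.17 in 231K, and 6.46 and 6.18 in 232P.

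NEUROG2, which drives cortical and motor neuron formation, had no peak in its window on chromosome 4 (112508516 to 112521180) in any sample. The nearest peak lay 454670 to 473818 bp from the gene, depending on the list. NEUROD1, a factor of neuronal and endocrine differentiation, was even farther from any peak. On chromosome 2 (181668295 to 181680827), the nearest one was between 1260480 and 4382136 bp away, and the surrounding 1 Mb held none in any list. Of all protein-coding genes, 11.3% were more than 450 kb from the nearest peak of the 6 lists and 2.75% more than 1 Mb. Both empty windows stayed empty with 20 kb on each side. A peak missing from a list says that the threshold was not passed in that library.

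ATOH1, the determinant of cerebellar granule neurons and of inner ear hair cells, lies on the plus strand of chromosome 4 (93828753 to 93830964) in a single exon. It was marked in all 6 lists, but weakly and on 1 side. Its covered share was 9.16% and 24.1% in WT, 17.9% and 34.1% in 231K, and 8.18% and 29.6% in 232P, so that each replicate 1 value was below each replicate 2 value. All peaks lay past the start of the gene, the closest at +1056 bp, and 250 bp of the window were covered in all 6 lists. Its highest -log10 q-value ranked between the 70.4th percentile of its list, in 232P replicate 1, and the 96.5th, in 232P replicate 2.

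NEUROD6, a marker of excitatory cortical neurons, was the most extensively covered of the 10 genes, with a mean of 80.5% of its window on chromosome 7 (31332465 to 31345726). Its covered share was 75.4% and 91.2% in WT, 89.2% and 94.3% in 231K, and 42.6% and 89.96% in 232P. The value of 232P replicate 1 stood apart from the other 5. In 231K replicate 2, a peak of 40761 bp spanned the gene and its surroundings, while in 232P replicate 1 the same window was split into 9 peaks of at most 1254 bp.

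NEUROD4 (chromosome 12, 55019974 to 55030017, plus strand) and NEUROD2 (chromosome 17, 39603536 to 39609777, minus strand) are both factors of neuronal differentiation and were covered to a lesser extent. For NEUROD4, the share was 29.4% and 45.6% in WT, 35.2% and 39.7% in 231K, and 5.87% and 30.6% in 232P. The 5.09% of its window that was covered in all 6 lists lay around the start and in a stretch from -2730 to -2433 bp. NEUROD2 had 29.2% and 30.9% in WT, 21.6% and 33.8% in 231K, and 27.6% and 21.6% in 232P. Its widest peak in each of the 6 lists, 2333 to 3989 bp, began 5699 bp or more past the annotated start. This peak lay wholly past the end of the gene in 232P replicate 1 and ran across that end in the other lists.

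OLIG1 and OLIG2 are neighbours on chromosome 21, both on the plus strand, with 40944 bp between them, and together specify oligodendrocyte progenitors. OLIG1 (33070141 to 33072413) was covered to 75.1% and 79.5% in WT, 77.2% and 79.6% in 231K, and 69.5% and 63.6% in 232P. The values of WT and 231K overlapped, and both 232P values were below them. Of the 4630 genes compared below, 53.9% were lower in both 232P samples than in both WT samples. Against both 231K samples, 42.2% were. OLIG2 (33025935 to 33029196) had 64.6% and 53.0% in WT, 50.2% and 49.7% in 231K, and 67.2% and 35.9% in 232P, where the 232P replicates enclosed all other samples. The interval that separates the 2 windows, 30944 bp long, was itself covered to 93.0% and 95.1% in WT, 86.4% and 93.1% in 231K, and 70.03% and 72.8% in 232P. The 56479 bp from the start of the OLIG2 window to the end of the OLIG1 window held 10 to 36 peaks per list that covered 62.1% to 82.4% of it. The mark thus ran on from one gene to the other, and whether the values of OLIG1 and OLIG2 depend on each other was not tested.

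**Figure D2:**
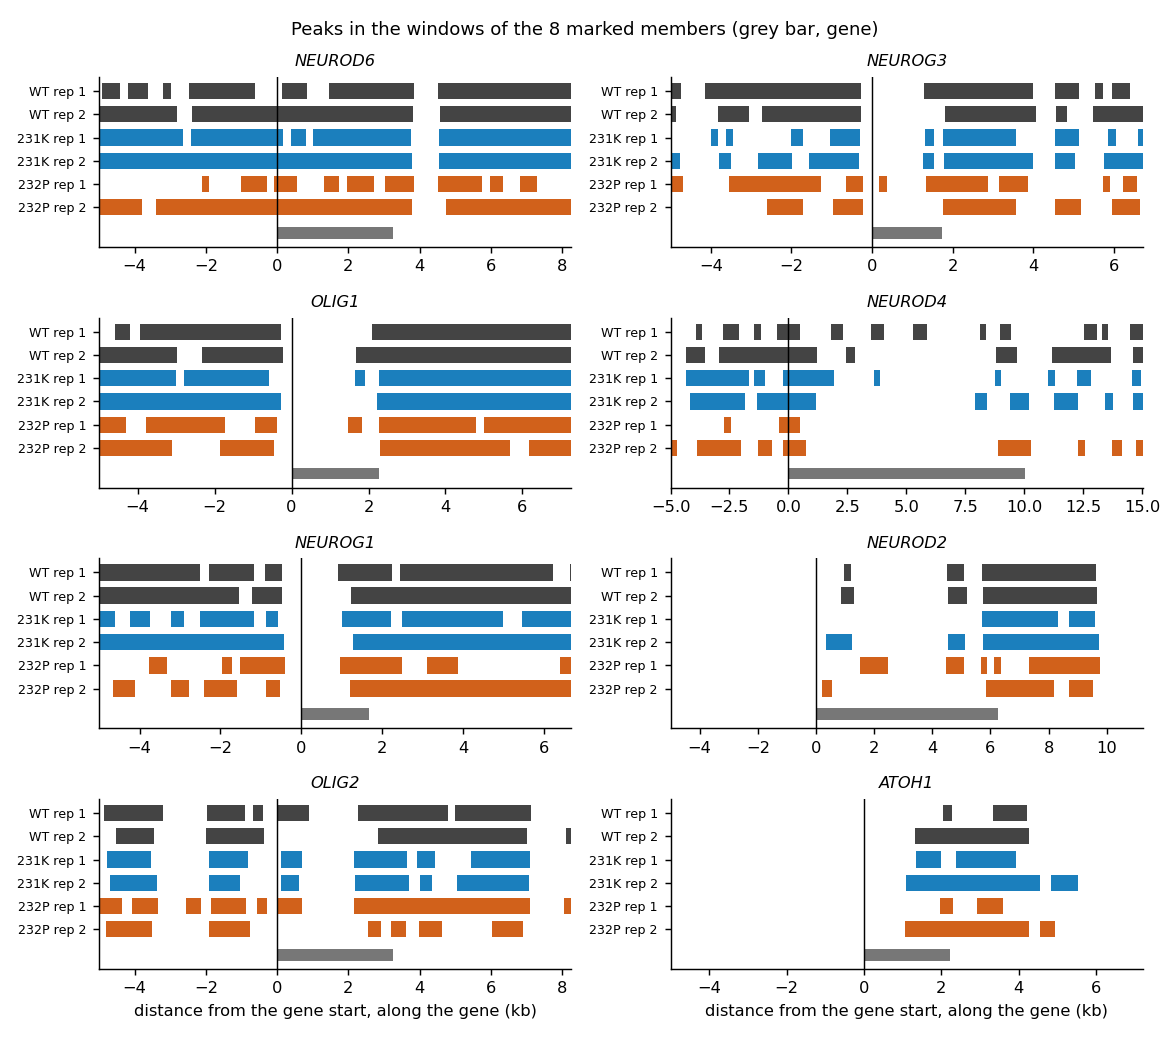
Peaks along the windows of the 8 marked genes, with the distance from the annotated gene start in kb, in the direction of transcription. Each row is 1 sample (black, WT, blue, 231K, orange, 232P), and the grey bar is the gene. The rows share an empty stretch at or just past the start of NEUROG1, OLIG1, NEUROG3 and OLIG2, whereas the start of NEUROD4 is covered in all 6 samples and ATOH1 has no peak before its start.

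The surroundings of the genes differed as well. In the 1 Mb centred on the start, peaks covered 19.6% to 57.0% of the sequence around NEUROD6, 11.6% to 46.5% around NEUROD4 and 18.9% to 32.5% around OLIG1 and OLIG2, depending on the list. NEUROG1 and NEUROD2 had 3.43% to 14.5% and 4.70% to 13.6%. NEUROG3 lay in sparsely marked surroundings with 0.816% to 1.90%, although 37.2% to 68.9% of its own window was covered, and ATOH1 had 0.0999% to 0.592%. The marked stretches of NEUROG3 and ATOH1 were thus islands, and those of NEUROD6 and NEUROD4 parts of wide marked regions. The lowest value of each of these genes was that of 232P replicate 1.

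The best -log10 q-value in a window grows with the depth of a library and is given as a description. OLIG1 had 8.07 and 14.1 in WT, 16.7 and 19.98 in 231K, and 6.93 and 10.97 in 232P. OLIG2 had 13.1 and 12.1 in WT, 13.5 and 16.7 in 231K, and 11.4 and 5.86 in 232P. OLIG1 in 231K replicate 1 stood at the 99.9th percentile of its list. NEUROD2 reached 19.6 in 231K replicate 2, beside 10.6 in 231K replicate 1, 11.2 and 10.2 in WT, and 11.9 and 7.43 in 232P. NEUROG3 had 10.2 and 11.1 in WT, 10.6 and 14.5 in 231K, and 6.08 and 6.62 in 232P. NEUROD6 had 13.2 and 14.8 in WT, 10.4 and 12.5 in 231K, and 4.49 and 10.9 in 232P. NEUROG1 was between 4.49 and 10.03, NEUROD4 between 3.75 and 9.33, and ATOH1 between 3.06 and 8.65, and for each of the 3 genes the lowest value was that of 232P replicate 1.

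Few wide peaks or many narrow ones made up this cover. NEUROD6 and OLIG1 had 2 to 9 and 2 to 6 peaks per list, with median widths of 1866 and 2526.5 bp, and NEUROD4, with 2 to 12 peaks, had a median width of 571 bp. Of the 233 peaks, 9 had a q-value above 0.05, 4 of them at NEUROD4.

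Within the windows of the marked genes, the same stretches were free of peaks in all 6 lists. At NEUROG1, 1317 bp from -397 to +919 around the start were covered in no list, and 70.6% of these bases were G or C, against 46.1% of the bases covered in all 6 lists. OLIG1 had such a gap of 1667 bp from -212 to +1454, with 72.6% G and C against 45.6%. In OLIG2, the longest gap was 1262 bp from +891 to +2152, with 70.05% against 51.1%. NEUROG3 had 910 bp from +361 to +1270, with 68.2% against 50.2%. In NEUROD6, the gap of 664 bp did not lie at the start but between +3841 and +4504, past the end of the gene, and 72.9% of its bases were G or C against 43.5%. In NEUROD2, the longest gap was 5218 bp from -5000, the edge of the window, to +217, with 54.8% against 52.6%. Its next gap, 1988 bp from +2493 to +4480, had 69.8%. NEUROD4 and ATOH1 went the other way. The bases of NEUROD4 covered in no list had 36.6% G and C and those covered in all 6 had 53.7%, and for ATOH1 the values were 46.8% and 51.2%. The windows of NEUROG2 and NEUROD1, empty throughout, had 48.7% and 42.4%.

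Of the 8 marked genes, 6 had a peak within 1 kb of the gene start in all 6 lists, NEUROD2 had one in 4 lists and ATOH1 in none. Of all protein-coding genes, 8.37% had a start peak in all 6 lists. With 2.5 kb on each side of the start, ATOH1 was reached in all 6 lists. The annotated start of NEUROD2, at 39609777, belongs to a longer transcript than the canonical one, which starts at 39607920. In the 250 bp bin centred 125 bp before the start, 22.1% of the bases of the 8 genes were covered on average over lists and genes, and in the bin centred 2375 bp past it 64.8%. The 1885 other genes with at least 30% of the window covered had 44.7% and 58.6% in the same bins. The 8 genes were not held to that minimum, and NEUROD2 and ATOH1, with means of 27.4% and 20.5%, would not have met it.

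The 250 bases before the start show the range of these promoters. RefSeq promoter sequences (GRCh38.p14) were held for 8 of the 10 genes, with OLIG1 and OLIG2 not among them. The dinucleotide CG, which reads the same on both strands, is written in capitals. NEUROG1 had the most of the 8 genes, 30, and 16.2% of 15345 promoters had at least as many. NEUROD6 had the fewest, 4, and 83.4% of promoters had at least as many. NEUROG2, empty of peaks, had 7, reached by 75.1% of promoters. The sequences are those at chr5:135535965-135536214, chr7:31340727-31340976 and chr4:112516181-112516430, all on the minus strand and written 5′ to 3′.
NEUROG1: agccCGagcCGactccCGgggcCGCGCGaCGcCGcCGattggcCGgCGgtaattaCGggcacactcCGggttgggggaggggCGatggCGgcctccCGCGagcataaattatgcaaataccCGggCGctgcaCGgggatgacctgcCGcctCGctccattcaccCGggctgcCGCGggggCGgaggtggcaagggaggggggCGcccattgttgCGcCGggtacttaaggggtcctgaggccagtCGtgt
NEUROD6: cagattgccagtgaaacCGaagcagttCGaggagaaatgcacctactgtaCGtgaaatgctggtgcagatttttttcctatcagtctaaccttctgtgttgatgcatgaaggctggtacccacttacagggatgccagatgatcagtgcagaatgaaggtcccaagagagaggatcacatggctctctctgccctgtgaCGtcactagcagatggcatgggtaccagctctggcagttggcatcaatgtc
NEUROG2: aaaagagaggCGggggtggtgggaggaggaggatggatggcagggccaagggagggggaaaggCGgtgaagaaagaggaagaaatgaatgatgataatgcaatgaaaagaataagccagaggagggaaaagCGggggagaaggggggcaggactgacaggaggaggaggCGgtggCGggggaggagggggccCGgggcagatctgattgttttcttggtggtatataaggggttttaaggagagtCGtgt

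Peaks covered none of the NEUROG1 sequence in any list. The NEUROD6 sequence was covered fully in both 231K lists and in replicate 2 of WT and of 232P, to 33.6% in 232P replicate 1 and not at all in WT replicate 1. The NEUROD4 promoter, with 6 CG, was covered to between 96.0% and 100% in all 6 lists. NEUROD1, with 24 CG, and ATOH1, with 18, had a promoter free of peaks in all lists. The promoter of NEUROG2, with 7, was free of peaks as well, so that few CG and a covered promoter did not always go together. Over all 15345 promoters, those with 0 to 4 CG had a start peak in all 6 lists in 20.4% of cases, and those with 30 or more in 3.42%.

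Base composition and cover were then compared in 250 bp bins within 5 kb of the start. In the 1885 other marked genes, peaks covered 66.7% of bases in bins with 45 to 50% G and C, 23.7% at 60 to 65%, 4.77% at 65 to 70% and 0.479% above 70%. The bins of the 8 genes had 72.8%, 17.3%, 2.81% and 1.51% in the same classes. The decline at high G and C content was therefore present in marked genes in general. The part of base composition in the gaps was not tested. The lists also differed among themselves in this respect. In 232P replicate 1, cover of the other marked genes was 15.3% in bins below 40% and 54.5% at 55 to 60%, whereas in 232P replicate 2 it was 56.5% and 31.2%.

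**Figure D3:**
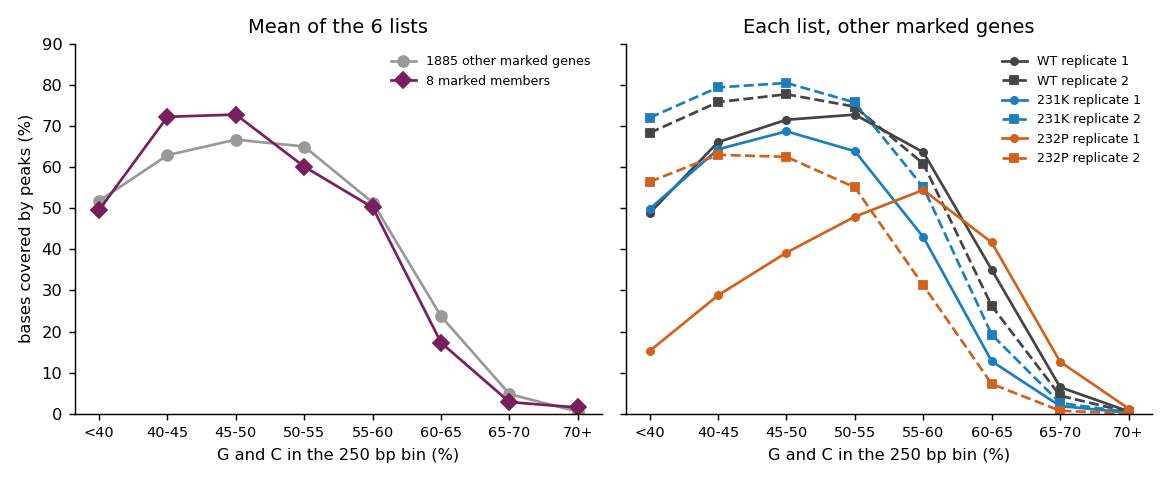
Share of bases covered by peaks against the G and C content of 250 bp bins within 5 kb of the gene start, both in percent. Left, the mean of the 6 lists for the 8 marked genes and for 1885 other genes with at least 30% of the window covered. Right, each list for the other genes, with replicate 1 as full and replicate 2 as broken lines. Cover falls to 0.479% in the bins above 70%, and the list of 232P replicate 1 peaks at a higher G and C content than the other 5.

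In the 8 genes, the 232P replicates also differed from each other. Cover was higher in replicate 1 than in replicate 2 for OLIG2, NEUROD2, NEUROG3 and OLIG1, whose windows had 49.8% to 57.7% G and C. It was lower in replicate 1 for ATOH1, NEUROD6 and NEUROD4, with 37.8% to 44.1%, and also for NEUROG1, with 50.3%. Within replicate 1, 232P minus WT was +2.68 points for OLIG2 and -1.66 for NEUROD2, whose windows had 57.7% and 56.8% G and C. It was -32.8 points for NEUROD6 and -23.5 for NEUROD4, whose windows had 41.2% and 37.8%. Within replicate 2, the difference was -17.1 points for OLIG2, -9.37 for NEUROD2, -1.28 for NEUROD6 and -15.1 for NEUROD4. NEUROG1, with 50.3%, had -40.7 and -17.6 points, NEUROG3, with 55.1%, had -17.9 and -20.1, OLIG1, with 49.8%, had -5.69 and -15.9, and ATOH1, with 44.1%, had -0.983 and +5.55. The part of base composition in the 232P values was not tested.

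To ask whether loss of Tau went with a change of the mark, the covered share was compared between genotypes with limma over the 4630 genes with a mean of at least 1%, among them the 8 marked genes. NEUROG2 and NEUROD1, with no peak, could not be compared. For 231K against WT, limma called no gene (0%) at an adjusted p under 0.05, and 100 genes had an unadjusted p under 0.05. None of the 8 genes was called, and their adjusted p was 1. Differences of the 8 genes went from -18.3 points in NEUROG3, with a 95% interval from -49.9 to 13.3, to +9.36 in ATOH1, with an interval from -14.0 to 32.7. Of the 8, 5 were negative and 3 positive, with a median of -1.19 beside -0.361 for all genes tested. NEUROG3 and OLIG2 were lower in both 231K samples than in both WT samples, and 12.7% of all genes tested were. None of the 8 was higher in both, against 4.49% of all genes. Within a replicate number, 4 of the 8 genes were lower in 231K in replicate 1 and 3 in replicate 2, beside 68.9% and 38.6% of all genes tested.

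For 232P against WT, the covered share of 3 genes (0.0648%) was called by limma, none of them among the 8, and 500 genes had an unadjusted p under 0.05. The called genes, ACTL7B, OR5D14 and SIRPG, differed by -13.4, -13.4 and -20.1 points, each with an adjusted p of 0.0427. NEUROG1 had the lowest p of the 8 genes, with a difference of -29.1 points (standard error 14.2, 95% interval from -59.9 to 1.68, limma adjusted p = 0.417). NEUROD4 followed with -19.3 points (interval from -49.1 to 10.5, limma adjusted p = 0.421) and NEUROG3 with -19.0 points (interval from -50.6 to 12.6, limma adjusted p = 0.431). Over the gene body with no flank, the differences of NEUROG1, NEUROD4 and NEUROG3 were -0.862, -14.5 and +3.97 points. With the 5 kb flanks, 7 of the 8 were negative with a median of -13.9 points. Of all genes tested, 95.1% were negative with a median of -11.7 points. Relative to that median, NEUROG1, NEUROD4, NEUROG3 and NEUROD6 were lower, and OLIG1, OLIG2, NEUROD2 and ATOH1 were higher. When each sample was scaled to its mean over all genes, which took the median of all genes to -1.26, the difference was positive for 7 of the 8 genes, NEUROG1 with +5.87 among them, and negative for NEUROD4 with -9.31. NEUROG1, NEUROG3, NEUROD2 and OLIG1 were lower in both 232P samples than in both WT samples, and 53.9% of all genes were. Within a replicate number, 7 of the 8 genes were lower in 232P in each of replicates 1 and 2, beside 93.3% and 88.5% of all genes tested.

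The differences of individual genes moved with the samples included, and the calls, those of single members among them, moved with both the samples and the model. Without 232P replicate 2, the comparison rested on the list of replicate 1 with the least covered sequence. The difference was then -42.9 points for NEUROG1 and -40.7 for NEUROD6. Without 232P replicate 1, it was -15.4 points for NEUROG1 and +6.63 for NEUROD6. With the replicate number as a block, limma called NEUROG1, with an adjusted p of 0.0381, among 1455 of 4630 genes, all of them lower, and with each sample also scaled to its mean it called 0 genes.

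**Figure D4:**
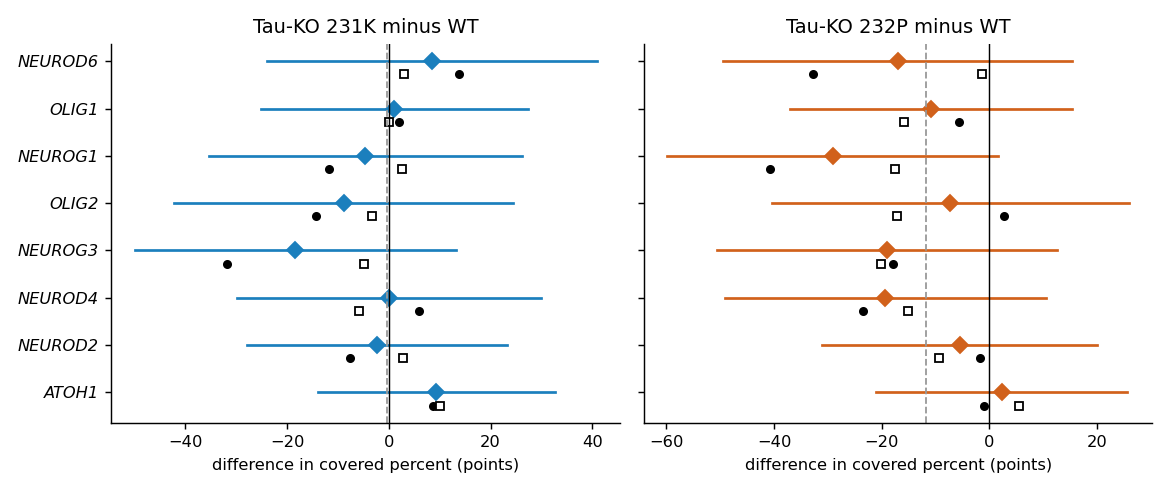
Difference in covered share from WT for the 8 marked genes, in percentage points, for 231K (left) and 232P (right). Diamonds and lines are the limma estimate and its 95% interval, small symbols below them the difference within replicate 1 (filled circle) and replicate 2 (open square), and the broken line the median of all 4630 genes. All intervals include 0, and in 232P the broken line stands at -11.7.

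Between the Tau-KO lines, limma called no gene (0%) for 232P against 231K, and 334 genes had an unadjusted p under 0.05. With the replicate number as a block, it called 1178 of 4630 genes, 1177 of them lower. With each sample also scaled to its mean, it called 0 genes. The 8 genes had a median of -9.48 points beside -10.5 for all genes. The lowest value was that of NEUROD6, -25.5 points, with an interval from -57.9 to 6.99. This comparison shares its 231K samples with that of 231K against WT and its 232P samples with that of 232P against WT.

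The height of the peaks, taken as the log2 of the highest fold enrichment in a window, was compared over the 3939 genes with a peak in all 6 lists. OLIG1 had the highest fold enrichment of the 8 genes, 11.3 in 231K replicate 2 and 10.2 in 231K replicate 1, against 5.96 and 9.25 in WT and 6.92 and 8.39 in 232P. Both 231K values were above both WT values, as in 18.4% of all genes, and above both 232P values, as in 42.2%. The difference for 231K against WT was 0.53 on the log2 scale (standard error 0.23, 95% interval from 0.04 to 1.03), with an unadjusted p of 0.0373 from limma and an adjusted p of 0.999. It was 0.78 within replicate 1, which holds the lower WT value, and 0.28 within replicate 2. NEUROD2 reached 10.96 in 231K replicate 2 and 7.79 in 231K replicate 1, with 7.94 and 7.57 in WT and 9.45 and 6.62 in 232P, so that the genotypes overlapped. OLIG2 had 8.38 and 8.41 in WT, 9.02 and 10.0 in 231K, and 9.04 and 5.74 in 232P.

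Over the 8 genes, the log2 difference of 231K against WT was negative in 1 and positive in 7, from -0.03 in NEUROD6 to 0.53 in OLIG1, with a median of 0.14 beside 0.06 for all genes, of which 36.1% were negative. For 232P against WT, it was negative in 4 and positive in 4, from -0.30 in NEUROG3 to 0.11 in NEUROG1, with a median of -0.11 beside -0.16 for all genes, of which 77.6% were negative. OLIG1, OLIG2 and NEUROG1 were higher in both 231K samples than in both WT samples, and 18.4% of all genes were, while NEUROG3 was lower in both 232P samples, and 35.3% of all genes were. No gene was called by limma in either comparison (0% of 3939 genes in each), with 102 and 233 genes at an unadjusted p under 0.05. For 232P against 231K, all 8 genes were negative, from -0.50 in OLIG1, with a 95% interval from -0.99 to 0.002, to -0.05 in ATOH1, with a median of -0.27 beside -0.22 for all genes, of which 84.9% were negative. NEUROG3, NEUROD4 and OLIG1 were lower in both 232P samples than in both 231K samples, and 42.2% of all genes were. No gene was called by limma (0% of 3939), and 399 had an unadjusted p under 0.05.

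Related genes were described by their counts alone. Of 14 further proneural and related bHLH genes, 5 had a peak in all 6 lists and 7 had none in any. PTF1A, a factor of inhibitory neurons and of the pancreas, had a mean cover of 59.1%. OLIG3, the paralog of OLIG1 and OLIG2, had 57.4%, with values from 45.9% to 72.1%, and BHLHE23 had 41.0%. NHLH1, NHLH2 and ATOH7 were among the genes without a peak.

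Among 10 HES and HEY genes, the Notch-dependent repressors of proneural genes, HEY2 was the one marked in all 6 lists, with 35.0% to 87.4% of its window, and 8 genes, HES1 and HES5 among them, had no peak. The 7 genes of E proteins, the dimer partners of the proneural factors, and of ID proteins, which sequester E proteins, had no member with a peak in all lists, and ID4 was highest with a mean of 5.64%. Of 18 bHLH genes of mesodermal and other lineages, 7 were marked in all lists. The muscle determinants MYF6 and MYF5 had means of 77.8% and 75.3%, and TCF21 had 76.0%, while TWIST1, HAND1 and MYOG had no peak.

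Of 8 genes of the adrenergic circuitry that maintains neuroblastoma cells, 7 had no peak in any list, HAND2, GATA3, ISL1, TH and DBH among them. Among 13 neuronal genes that act downstream of proneural factors, NEUROD4 and NEUROD1 included, 5 were marked in all lists, with TBR1 at a mean of 30.8% and EOMES at 27.3%, and 6 had no peak, as STMN2, TUBB3 and ELAVL4. Of 10 genes of the oligodendrocyte lineage, 4 were marked in all lists, among them MOG with a mean of 57.8%, NKX2-2 with 39.2% and MAG with 27.3%, whereas SOX10, PDGFRA, MYRF, CSPG4 and CNP had none. Of these lists, 6, 2, 1, 8, 1, 6 and 4 genes, in the order given, had enough cover to be compared between genotypes, and limma called none of them, beside 0, 3 and 0 of all 4630 genes.

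**Figure D5:**
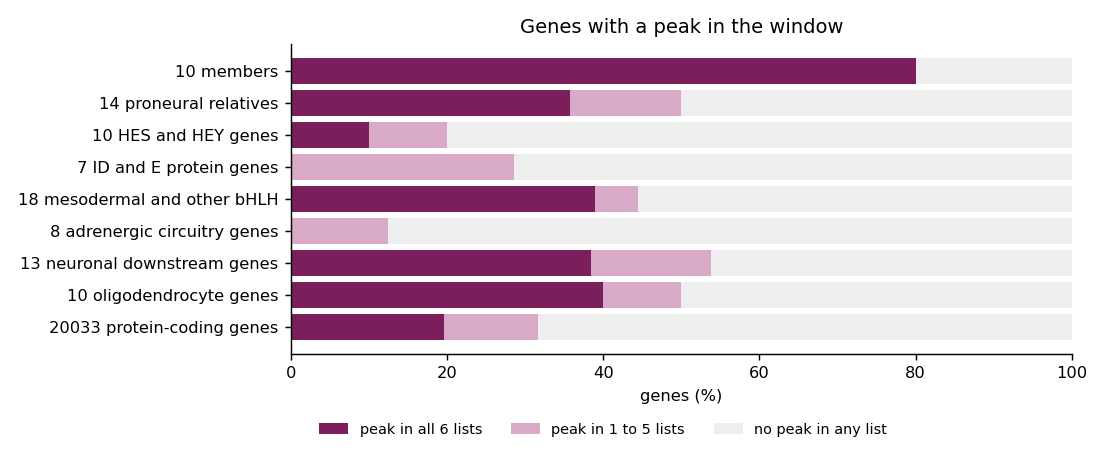
Share of genes, in percent, with a peak in the window in all 6 lists (dark), in 1 to 5 lists (light) or in none (grey), for the 10 genes described, for 7 related gene lists and for all 20033 protein-coding genes. Of the 10 genes, 8 had a peak in all 6 lists, against 19.7% of all genes, and the 8 adrenergic circuitry genes had none with a peak in all 6.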

How the data were processed

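H3K27me3 ChIP was analysed in 6 samples of SH-SY5Y cells (WT, 231K and 232P, 2 replicates each), grouped by their labels. The 6 input samples were not analysed here. Reads had been trimmed by the authors with trimmomatic and aligned with BWA to hg38, and peaks had been called sample by sample with MACS (version 2). The methods name broad peaks, but the deposited files are of the narrowPeak type with 10 columns, and threshold and control library are not given in the sources used here. The deposited fold enrichment is a ratio of reads at the summit to local background, each with 1 added. The -log10 p-value and -log10 q-value of the summit are deposited too, and the score deposited beside them is the -log10 q-value times 10, without decimals. Read totals are not in the lists. Summit height and background were recovered from fold enrichment and p-value, and gave whole reads within 0.001 of the -log10 p-value for 100% of 2000 peaks per list.

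Windows were the gene (GENCODE 44) with 5 kb on each side, and an overlap of 1 bp counted. The covered percent (genes with a mean of at least 1) and the log2 of the highest fold enrichment (genes with a peak in all 6 lists) were compared with limma 3.58.1 in R 4.3.3 over all 6 samples, with moderated variances and Benjamini-Hochberg adjustment. The values are bounded or depend on depth, so p-values are approximate. On simulated data, 45% of 200 genes changed by 40 points were recovered among 4630 genes, and 97% of 200 genes changed by 2 on the log2 scale among 3939. The simulated noise was Gaussian and independent between samples, and the simulated percent had no upper bound. Real values are bounded and same-numbered samples deviated together, so recovery in the real data may differ. Replicates were not tied to separate cultures by the labels. The members and lists were chosen with earlier results of these data known. Genes named were the members, genes called by limma and those with the highest or lowest mean cover of each list. The other genes without a peak and the 1885 genes of the G and C comparison were given by count, and those named beyond the rule were chosen after their values were seen. Single results for some genes of the lists are not reported here. Alternatives were other peak filters, windows, scales, a replicate block and leaving out each replicate.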

Additional observations from a re-analysis of the deposited data

How the results depend on the processing

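The 8 genes with a peak in all 6 lists numbered 4 among peaks with -log10 q of 5 or more, and the 6 with a peak near the start then numbered 0. Of all 20033 genes, 7.06% and 1.49% had such a peak, against 19.7% and 8.37% without the filter. For 231K against WT, called genes by covered percent numbered 9 with 20 kb on each side and 0 to 16 without 1 replicate. For 232P against WT, the 3 calls became 0 with -log10 q of 5 or more, a q-value under 0.05, an equal number of strongest peaks (147118), the gene body, log2 of the percent plus 1, scaling to the sample mean (also with the block, an alternative chosen after seeing the data), and no filter except genes at 0 in all lists, since limma could not be fitted with those included. They became 14 with 20 kb on each side, and 0 to 661 without 1 replicate, the 661 without 232P replicate 2. For 232P against 231K, calls numbered 0 to 631 without 1 replicate. By fold enrichment, the median in place of the highest value gave 1 call for 231K, and leaving out 1 replicate gave 0 to 2 for 232P. For 231K over the gene body with no flank, the difference was +1.10 points for NEUROG3, -10.3 for OLIG1 and +14.8 for OLIG2. Each of these had the opposite sign with the 5 kb flanks, and the other marked genes kept their sign. For 232P, NEUROG3 alone among the marked genes changed sign, to +3.97 points. The causes were not tested. A lone replicate was assumed to vary like the other groups.

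With the replicate number as a block, calls by covered percent numbered 18, 1455 and 1178 for 231K against WT, 232P against WT and 232P against 231K, and NEUROG1 in 232P was called with -29.1 points (limma adjusted p = 0.0381). By fold enrichment, the block gave 0 calls. Deviations of same-numbered samples correlated at 0.574, 0.646 and 0.604 over genes, but with 2 pairs per comparison the labels tie no replicates together, and the number moved with the narrowest peak width. Scaled and blocked together, calls numbered 0.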
